A study of Oryctolagus cuniculus with 134 samples.

Results

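The aortic valve (AoV) was compared with the proximal aorta (Ao) of the same chow-fed rabbits. Of the 134 RNA libraries of the series, 14 were used for this comparison, namely every AoV and Ao library with the treatment label Control. They came from 7 rabbits, each of which gave 1 library of each tissue, and both libraries were matched by the animal number that opens their names. The rabbits were male New Zealand White rabbits on standard chow without vitamin D2 (Ctrl). Their protocol began at the age of 12 weeks and lasted 16 weeks, and none of them was irradiated. The series measured the RNA of the aorta and of the 4 heart valves in rabbits given chow, cholesterol-enriched or lard-enriched diets, in part with irradiation. The Ao samples were dissected aorta rings. Tissues of 7 further rabbits on a 5% lard diet with vitamin D2 for the first 15 days (Lard), also male and of the same breed and age, served as a second look at the same pair of tissues. The chow mitral (MV, 6 libraries), pulmonary (PV, 7 libraries) and tricuspid valves (TV, 7 libraries) gave levels for orientation.

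The aortic valve consists of thin leaflets with a fibrous, a proteoglycan-rich and an elastic layer. Valvular interstitial cells, which resemble fibroblasts, maintain these layers, and an endothelium covers both faces of the leaflet. The wall of the proximal aorta is an elastic artery, in which sheets of elastin alternate with layers of contractile smooth muscle cells. Part of those muscle cells descends from the neural crest and part from the second heart field, and valve tissue arises by the transformation of endocardial cells into mesenchyme with a contribution of the neural crest. Both tissues calcify in disease, through programs shared with cartilage and bone.

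The AoV libraries held between 13978094 and 20806309 counted read pairs (median 16424301) and the Ao libraries between 18072564 and 20857556 (median 18794285). All 7 Ao libraries were on plate 2, whereas 3 AoV libraries were on plate 1 and 4 on plate 2. Results were therefore also read in the 4 rabbits with both libraries on plate 2, where 147 of the 148 differentially expressed genes named below could be tested. Between the AoV libraries of both plates, 0 of 14457 genes passed the test with edgeR, while 205 had p under 0.05 before adjustment. That comparison of 3 with 4 libraries is small, so its 0 is no measure of a plate effect. Levels are given as CPM (counts per 1e6 read pairs) on library sizes scaled by the trimmed mean of M values (TMM). At 1 CPM the smallest library holds 13.98 read pairs, and counting error alone then has an SD of 26.7% of the level. The libraries of a tissue came from separate rabbits. Each level is that of a bulk tissue, so that fewer cells of a type and less RNA per cell cannot be told apart.

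The tissue labels were checked with defining markers. The summed level of the 5 smooth muscle markers was 423 to 1275 CPM in the valve and 76801 to 107823 CPM in the aorta, without overlap. Markers of heart muscle summed to 401 to 14522 CPM in the valve and 797 to 1069 CPM in the aorta. RYR2, which is given with the heart muscle markers below, made up 379.6 to 617 CPM of the sums in the aorta. MYH7, MYL2 and MB together had 122 to 10738 CPM in the valve and 2.45 to 36.4 CPM in the aorta, so that these 3 markers were higher in every AoV library. The AoV libraries of rabbits L08742, L08709 and L08256 had the highest sums of heart muscle markers, with 14522, 5352 and 1756 CPM. Those 3 AoV libraries were on plate 2. The endothelial defining markers summed to 97.0 to 598 CPM in the valve and 103 to 203 CPM in the aorta, and the lowest AoV value belonged to rabbit L08313. Smooth muscle RNA thus separated the tissues as labelled, and the amounts of heart muscle and endothelial RNA differed widely between AoV libraries.

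The AoV libraries also fell into 2 sets by the correlation of their log2 levels over the genes tested. Those of rabbits L08256, L08273 and L08719 had Pearson's r of 0.946 to 0.972 with each other, and the other 4, called the larger valve set here (L08286, L08313, L08709 and L08742), had 0.942 to 0.962. Between the sets r was 0.789 to 0.907. Each set held libraries of both plates. PDK4 was at 38.0 to 48.9 CPM in the AoV of the first 3 rabbits and 179.7 to 194.8 CPM in the larger valve set, SREBF2 at 220.0 to 485 CPM and 56.3 to 141 CPM, and SOX9 at 292 to 374 CPM and 106 to 158.02 CPM. The labels give no difference between these rabbits, and the part of the sets in the results was not tested beyond a fit of the larger valve set alone, which was added after the data were seen.

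Differences between AoV and Ao covered a large part of the measured genes. Of 13692 genes tested, 6478 (47.3%) were differentially expressed genes (DEGs), defined by an adjusted p under 0.05 with edgeR's quasi-likelihood test and a fold change over 1.5. In the AoV 3540 genes were higher (25.9%) and 2938 lower (21.5%). In 4788 of the DEGs, all 7 rabbits moved in the direction of the call. The AoV exceeded the Ao more than 4-fold in 1286 DEGs, and it fell short of the Ao by more than 4-fold in 524. The levels of the groups did not overlap in 11.1% of genes with higher and in 11.9% with lower AoV levels. In the 4 rabbits with both libraries on plate 2, 2996 genes (21.6%) passed, 1653 (11.9%) higher and 1343 (9.67%) lower in the AoV. All 6455 DEGs of the 7 rabbits that were tested there kept their sign. These 4 rabbits are among the 7 that gave the calls, so a kept sign there is no independent check. Without TMM scaling, 4853 of 6362 DEGs (76.3%) were higher in the AoV, against 54.6% with it, and the median log2 fold change of all genes shifted from 0.02 to 0.34. In the 4 rabbits of the larger valve set 3650 genes (26.5%) passed, 1980 (14.4%) higher and 1670 (12.1%) lower, and all 6432 DEGs of the 7 rabbits that were tested there kept their sign. That set too is part of the 7 rabbits. Of the DEGs named here, 147 were tested in that set, and the 14 that were not called are given with their values below. Gene lists are given below by their counts and their median, against these shares and the median of 0.02 over all genes.

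**Figure D1:**
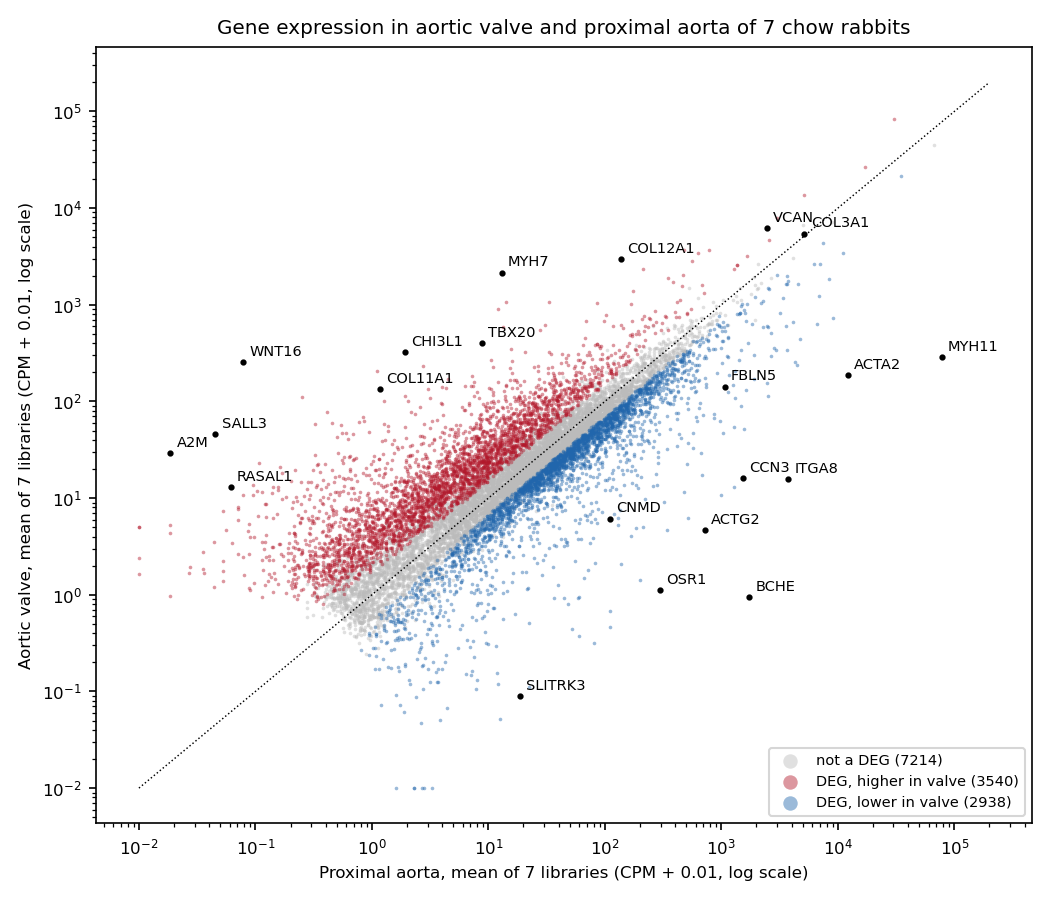
Mean level of each tested gene in the chow proximal aorta (x axis, CPM + 0.01, log scale) and in the chow aortic valve (y axis, CPM + 0.01, log scale), each the mean of 7 libraries. Coloured points are the 3540 DEGs higher and the 2938 DEGs lower in the valve, and named genes stand far from the diagonal except COL3A1 and VCAN.

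Contractile genes of smooth muscle stood much lower in the AoV. Of 33 genes tested, 28 were lower and 2 higher, and their median log2 fold change was -3.24. The levels of 27 did not overlap between tissues. MYH11 (ENSOCUG00000013450), the smooth muscle myosin heavy chain, was at 125 to 513 CPM in the valve, median 183.1, and 63455 to 89227 CPM in the aorta, median 81365. Its log2 fold change was -8.33 ± 0.38 (SE) with an adjusted p of 1.06e-06 by edgeR, and the highest AoV library lay far under the lowest Ao library. ACTA2 (ENSOCUG00000008193), smooth muscle α-actin, was at 138 to 263.3 CPM in the valve, median 188.98, and 9694.8 to 13606 CPM in the aorta, median 12423. That difference amounted to -6.06 ± 0.20 on the log2 scale (adjusted p = 4.75e-07), again without overlap. Actin genes are near-identical in their coding sequence, so the counting may have split reads between ACTA2 and its paralogs such as ACTG2 (log2 fold change -7.40).

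MYOCD, the coactivator that drives the contractile program of smooth muscle, was at 10.3 to 32.2 CPM in the valve, median 24.1, and 364 to 697 CPM in the aorta, median 522. It was lower in the AoV of all 7 rabbits (log2 fold change -4.58 ± 0.22, adjusted p = 1.22e-06). ITGA8, the α8 chain of a matrix-binding integrin of contractile cells, ran at 6.95 to 22.1 CPM in the valve, median 16.7, and 2930 to 4330 CPM in the aorta, median 3974. Its levels were separated by a wide gap (log2 fold change -7.99 ± 0.31, adjusted p = 5.91e-07). MYL9, the regulatory light chain of smooth muscle myosin, was lower as well (log2 fold change -4.65 ± 0.24, adjusted p = 1.98e-06), with 35.0 to 86.4 CPM in the valve, median 49.3, and 1120 to 1478 CPM in the aorta, median 1282. LMOD1, leiomodin 1, which nucleates actin filaments in smooth muscle, was at 30.6 to 182.6 CPM in the valve, median 65.3, and 885 to 2199 CPM in the aorta, median 1408 (log2 fold change -4.36 ± 0.43, adjusted p = 7.4e-05), without overlap. The 2 members on the other side were CAVIN2, a coat protein of caveolae, and FHL2, a LIM-domain cofactor. CAVIN2 ranged over 521 to 754 CPM in the valve, median 539, and 86.4 to 177.7 CPM in the aorta, median 155.9 (log2 fold change 2.03 ± 0.17, adjusted p = 2.3e-05) and its groups did not overlap. FHL2 was at 37.8 to 72.3 CPM in the valve, median 52.5, and 20.5 to 43.1 CPM in the aorta, median 37.7, its groups overlapped, and its call (log2 fold change 0.73 ± 0.25, adjusted p = 0.0368) was lost without any 1 of rabbits L08256 (log2 fold change 0.62), L08313 (0.80), L08709 (0.61) or L08742 (0.57). That leaves 1 higher member in each of these 4 cases, as in the larger valve set (log2 fold change 0.79, adjusted p = 0.107 for FHL2). TAGLN, CNN1 and ELN were not analysed here by name.

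**Figure D2:**
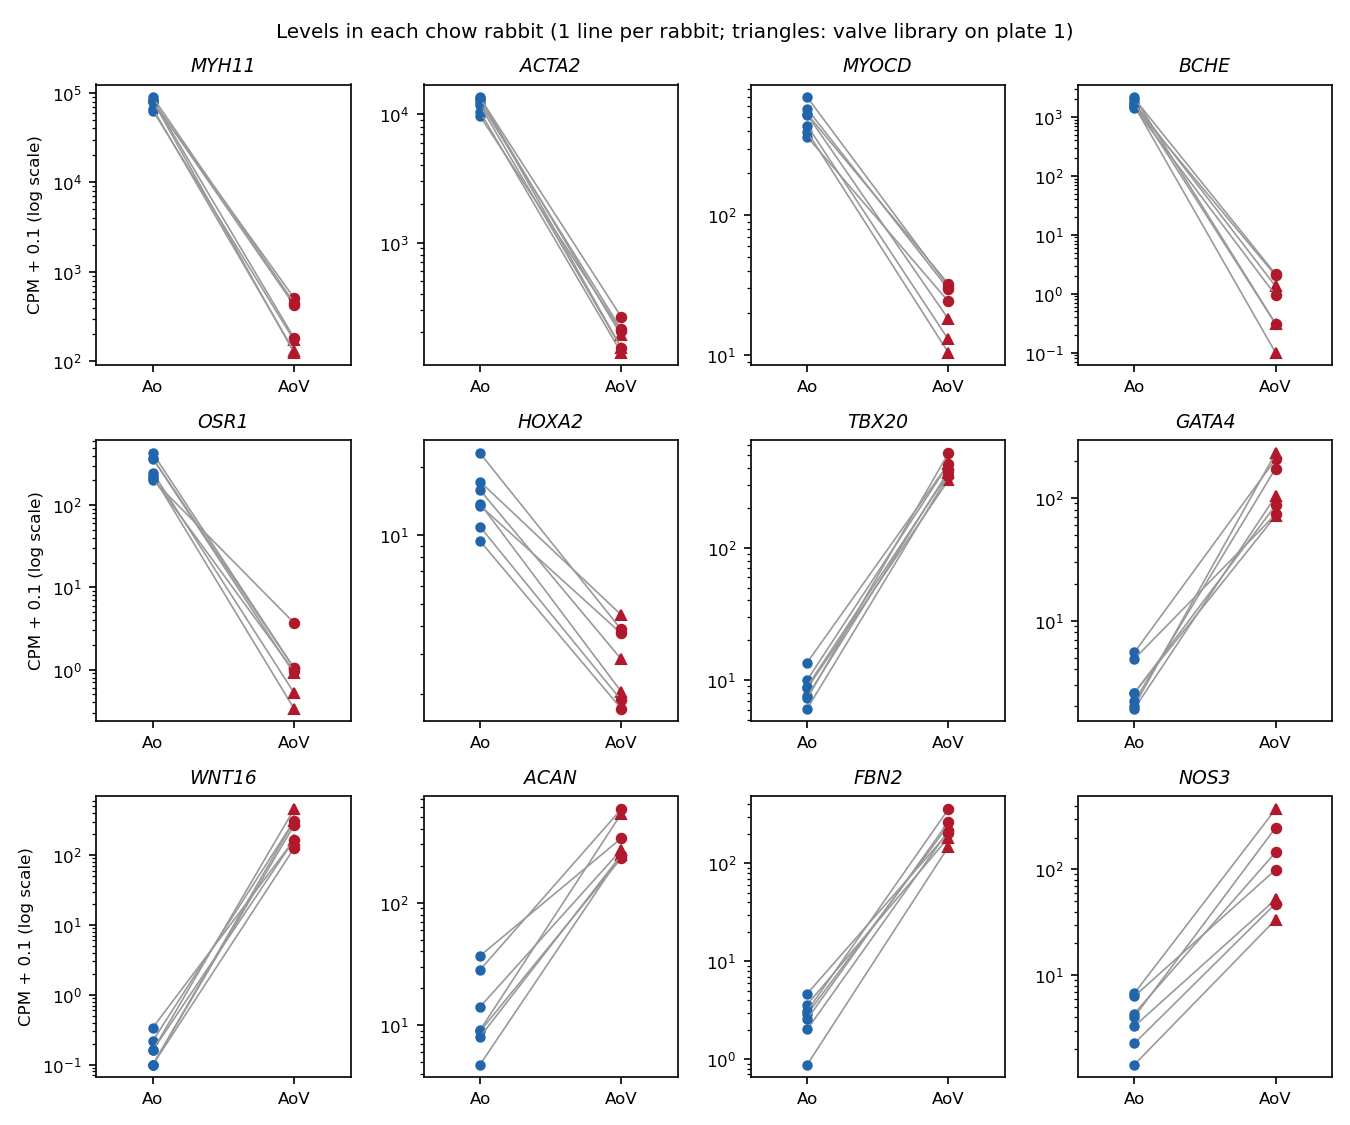
Levels of selected genes in the aorta and aortic valve of each chow rabbit (y axis, CPM + 0.1, log scale), with a line joining both libraries of 1 rabbit and triangles where the valve library was on plate 1. Lines run down to the valve for MYH11 in all 7 rabbits and up for TBX20 in all 7.

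Receptors and effectors of vascular tone were more often lower than higher in the AoV. Of 43 genes, 24 were lower and 11 higher in the AoV (median log2 fold change -1.16). PDE5A, the phosphodiesterase that degrades cGMP in smooth muscle, was at 24.2 to 62.5 CPM in the valve, median 57.6, and 789.6 to 1249 CPM in the aorta, median 1101. It was among the 6 genes with the smallest p on the lower side (log2 fold change -4.54 ± 0.17, adjusted p = 5.25e-07). GUCY1B1, the β1 subunit of the nitric oxide receptor guanylate cyclase, was at 3.10 to 10.3 CPM in the valve, median 4.32, and 88.1 to 146 CPM in the aorta, median 136 (log2 fold change -4.72 ± 0.24, adjusted p = 1.84e-06). KCNMA1, the pore subunit of the large-conductance calcium-activated potassium channel, was at 49.0 to 82.2 CPM in the valve, median 71.0, and 428 to 784 CPM in the aorta, median 617 (log2 fold change -3.17 ± 0.17, adjusted p = 2.12e-06). None of these 3 genes overlapped between tissues. The angiotensin receptor gene AGTR1 had 0 to 0.554 CPM in the valve, median 0.0708, and 2.99 to 11.6 CPM in the aorta, median 8.24 (log2 fold change -6.39 ± 0.60, adjusted p = 5.28e-05), and the adrenergic receptor gene ADRA1D had 0 to 0.166 CPM in the valve, median 0, and 1.27 to 6.90 CPM in the aorta, median 3.98 (log2 fold change -6.57 ± 0.56, adjusted p = 2.92e-05). Both of these were picked after their values were seen.

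The higher members of that list were led by NOS3, the endothelial nitric oxide synthase, and CACNA1G, a T-type calcium channel. NOS3 ranged over 33.4 to 369.6 CPM in the valve, median 99.1, and 1.33 to 6.67 CPM in the aorta, median 3.96 (log2 fold change 4.84 ± 0.31, adjusted p = 5.14e-06). CACNA1G had 5.82 to 59.9 CPM in the valve, median 25.6, and 0.599 to 2.16 CPM in the aorta, median 1.06 (log2 fold change 4.30 ± 0.40, adjusted p = 5.24e-05). Neither overlapped between the tissues. EDN1, which encodes the vasoconstrictor endothelin-1, was also higher, with 10.6 to 91.4 CPM in the valve, median 25.8, and 1.38 to 3.24 CPM in the aorta, median 2.66 (log2 fold change 3.44 ± 0.47, adjusted p = 0.000458). NPR3, the clearance receptor for natriuretic peptides, had 11.1 to 26.3 CPM in the valve, median 19.7, and 13.6 to 30.9 CPM in the aorta, median 19.2, and its log2 fold change of 0.01 (adjusted p = 0.981) was no DEG. Endothelial RNA was higher in most AoV libraries, as given above, and its part in the NOS3 and EDN1 values was not tested.

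The genes with the smallest p in each direction mark both tissues further. Higher in the AoV were CHI3L1, TBX20, A2M, ENC1, ADAMTS19 and PTN. CHI3L1, a chitinase-like protein secreted by cartilage cells and macrophages, was at 178.4 to 569.6 CPM in the valve, median 283, and 0.960 to 3.004 CPM in the aorta, median 1.86 (log2 fold change 7.36 ± 0.22, adjusted p = 4.75e-07). The protease inhibitor gene A2M was at 5.49 to 59.7 CPM in the valve, median 19.6, and 0 to 0.0605 CPM in the aorta, median 0, with a single read pair in all 7 Ao libraries against 4003 in the AoV, a ratio of 3630 (exact 95% interval 651 to 143413, counting error only). RNA of A2M was therefore all but absent from the Ao. The growth factor pleiotrophin (PTN) was at 64.3 to 143 CPM in the valve, median 98.6, and 6.31 to 17.2 CPM in the aorta, median 9.46 (log2 fold change 3.24 ± 0.14, adjusted p = 9.4e-07). ENC1, an actin-binding protein, had 85.5 to 171.3 CPM in the valve, median 143, and 6.17 to 13.2 CPM in the aorta, median 10.2 (log2 fold change 3.77 ± 0.15, adjusted p = 6.48e-07). In none of them did the highest Ao library reach the lowest AoV library.

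On the lower side the smallest p values belonged to ACTA2, CCN3, TES, PDE5A, SLMAP and JPH1. CCN3, a secreted matricellular protein, was at 13.3 to 19.4 CPM in the valve, median 15.9, and 1114 to 2254 CPM in the aorta, median 1414 (log2 fold change -6.57 ± 0.24, adjusted p = 5.25e-07). TES (testin), a protein of focal adhesions, had 7.79 to 23.0 CPM in the valve, median 12.8, and 983 to 1693 CPM in the aorta, median 1205 (log2 fold change -6.69 ± 0.25, adjusted p = 5.25e-07). Both lay far lower in every AoV library than in any Ao library. SLMAP, a membrane-associated protein of muscle, was at 73.3 to 143 CPM in the valve, median 120.1, and 1569 to 3225 CPM in the aorta, median 2479 (log2 fold change -4.49 ± 0.17, adjusted p = 5.25e-07). Junctophilin 1 (JPH1), which ties the surface membrane to the calcium store of muscle cells, was at 3.99 to 7.86 CPM in the valve, median 5.02, and 61.8 to 112 CPM in the aorta, median 86.2 (log2 fold change -3.98 ± 0.15, adjusted p = 5.25e-07). All 7 rabbits had less of each of these RNAs in the AoV.

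Ordered by fold rather than by p, and among DEGs above 10 CPM in either tissue, WNT16, A2M, SALL3, ANKRD1 and RASAL1 led the higher genes. BCHE, OSR1, MYH11, ITGA8 and SLITRK3 led the lower ones. This order was chosen after the values were seen. BCHE, which encodes butyrylcholinesterase, was at 0 to 2.05 CPM in the valve, median 0.845, and 1429 to 2157 CPM in the aorta, median 1724 (log2 fold change -11.20 ± 0.73, adjusted p = 6.29e-06). SALL3, a zinc-finger transcription factor, was at 13 to 100.9 CPM in the valve, median 27.1, and 0 to 0.121 CPM in the aorta, median 0 (log2 fold change 9.99 ± 0.56, adjusted p = 2.89e-06). BCHE was thus abundant in every Ao library and SALL3 was present in every AoV library. RASAL1, which switches off Ras, had 2.49 to 28.2 CPM in the valve, median 8.99, and 0 to 0.180 CPM in the aorta, median 0 (log2 fold change 7.89 ± 0.55, adjusted p = 9.21e-06). SLITRK3, a membrane protein known from neurons, had 0 to 0.388 CPM in the valve, median 0.0444, and 13.9 to 23.9 CPM in the aorta, median 19.6 (log2 fold change -7.97 ± 0.64, adjusted p = 2.01e-05). For SALL3, RASAL1 and SLITRK3 the lower tissue held 4, 6 and 10 read pairs in its 7 libraries, so the fold rests on few counts there, while the groups were fully separate. ANKRD1, a stress-responsive ankyrin repeat protein of heart muscle, varied from 2.37 to 545.9 CPM in the valve, median 28.2, with 0 to 0.705 CPM in the aorta, median 0.240 (log2 fold change 7.94 ± 0.57, adjusted p = 1.13e-05). Heart muscle RNA varied between the same AoV libraries, and its part in the ANKRD1 value was not tested.

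Transcription factors of the heart and valves went in both directions, with 19 of 57 higher and 15 lower in the AoV (median log2 fold change 0.34). The balance turned in the plate 2 rabbits, with 10 higher and 12 lower. TBX20 (ENSOCUG00000007422), a T-box factor needed for endocardial cushion and valve growth, was at 324 to 517 CPM in the valve, median 378, and 5.996 to 13.5 CPM in the aorta, median 8.59. Its log2 fold change was 5.51 ± 0.20 (adjusted p = 5.25e-07 by edgeR), and the groups lay far apart. GATA4, a zinc-finger factor of the developing heart, was at 71.0 to 230 CPM in the valve, median 103, and 1.82 to 5.40 CPM in the aorta, median 2.47 (log2 fold change 5.42 ± 0.38, adjusted p = 9.08e-06). SOX9, which directs cartilage matrix genes and valve precursor growth, was at 106 to 374 CPM in the valve, median 158.02, and 8.36 to 23.0 CPM in the aorta, median 15.5 (log2 fold change 3.75 ± 0.35, adjusted p = 5.28e-05). The AoV libraries of these T-box, GATA and SOX genes all lay above the Ao libraries. SOX5, the partner of SOX9 in cartilage, was at 113 to 197.6 CPM in the valve, median 176.4, and 12.5 to 38.1 CPM in the aorta, median 28.7 (log2 fold change 2.67 ± 0.14, adjusted p = 2.1e-06). PRRX1, a homeobox gene of mesenchyme, had 214 to 309.9 CPM in the valve, median 241.1, and 51.7 to 88.9 CPM in the aorta, median 63.9 (log2 fold change 1.93 ± 0.13, adjusted p = 5.11e-06). The groups of all 5 genes were separate. TBX5 was low in both tissues at 0.0782 to 3.44 CPM in the valve, median 2.13, and 0 to 1.08 CPM in the aorta, median 0.181. Its call (log2 fold change 2.75 ± 0.84, adjusted p = 0.0229) was lost in the plate 2 rabbits (log2 fold change 3.29, adjusted p = 0.0814) and without rabbit L08286 (log2 fold change 2.59) or L08719 (2.39).

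Lower in the AoV were OSR1 and ZEB1 as the members with the smallest p. OSR1, a zinc-finger factor of mesenchyme, had 0.234 to 3.60 CPM in the valve, median 0.849, and 204 to 428 CPM in the aorta, median 248.7 (log2 fold change -8.36 ± 0.51, adjusted p = 4.47e-06). ZEB1, a repressor of epithelial genes, was at 77.1 to 127 CPM in the valve, median 94.8, and 455 to 593 CPM in the aorta, median 479 (log2 fold change -2.41 ± 0.15, adjusted p = 3.75e-06). The levels of both genes were separate between tissues. NFATC1 and TWIST1 were not analysed here by name.

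HOX genes, which record position along the body axis, were mostly lower in the AoV among those tested. Of 32 HOX genes in the data, 8 passed the filter on low counts, of which 7 were lower and 0 higher (median log2 fold change -2.35). A gene can pass that filter through its level in either tissue alone, so the direction of these counts may in part be set by the filter. In the plate 2 rabbits 5 of 7 tested were lower and 0 higher. HOXA2 was at 1.63 to 4.37 CPM in the valve, median 2.75, and 9.35 to 22.9 CPM in the aorta, median 13.7 (log2 fold change -2.43 ± 0.19, adjusted p = 1.72e-05). HOXA3 was at 0.311 to 2.19 CPM in the valve, median 0.737, and 4.24 to 18.2 CPM in the aorta, median 7.17 (log2 fold change -3.26 ± 0.48, adjusted p = 0.000756). HOXB2 had 0.141 to 1.36 CPM in the valve, median 0.495, and 1.68 to 5.47 CPM in the aorta, median 4.06 (log2 fold change -2.88 ± 0.56, adjusted p = 0.00307). The levels of HOXA2, HOXA3 and HOXB2 did not overlap between tissues. HOXB2 lost its call in the plate 2 rabbits (log2 fold change -2.44, adjusted p = 0.0555). The log2 fold changes of HOXB3 (-3.12), HOXA4 (-1.89) and HOXD3 (-2.22) were called too, although their levels overlapped. The call of HOXD3 was lost without rabbit L08286 (log2 fold change -2.27), L08313 (-2.23) or L08742 (-2.14). HOXD3 did not pass the filter in the plate 2 rabbits. HOXB5, with 0.0888 to 0.831 CPM in the valve, median 0.469, and 0.294 to 2.30 CPM in the aorta, median 1.20, was not a DEG (log2 fold change -1.27, adjusted p = 0.102). All of the HOX genes named are rare RNAs at this depth, and their medians in the AoV were under 1 CPM except for HOXA2.

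The remaining chow valves put these genes in context, as levels without a test. HOXA2 had a median of 3.41 CPM in the PV (2.35 to 5.59), 0.0285 in the MV (0 to 0.170) and 0 in the TV (0 to 0.118). HOXA2 was thus present in both arterial valves and close to 0 in both atrioventricular valves. TBX5 showed the opposite layout, with medians of 32.1 CPM in the MV and 54.9 in the TV, and 0.678 in the PV. TBX20 had medians of 457, 328 and 394 CPM in the MV, PV and TV. WNT16 had 341, 199.2 and 197.98, so TBX20 and WNT16 were high in all 4 valves. BCHE had medians of 2.08, 1.24 and 9.53 CPM in the same order, under the lowest Ao library in every valve library.

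**Figure D3:**
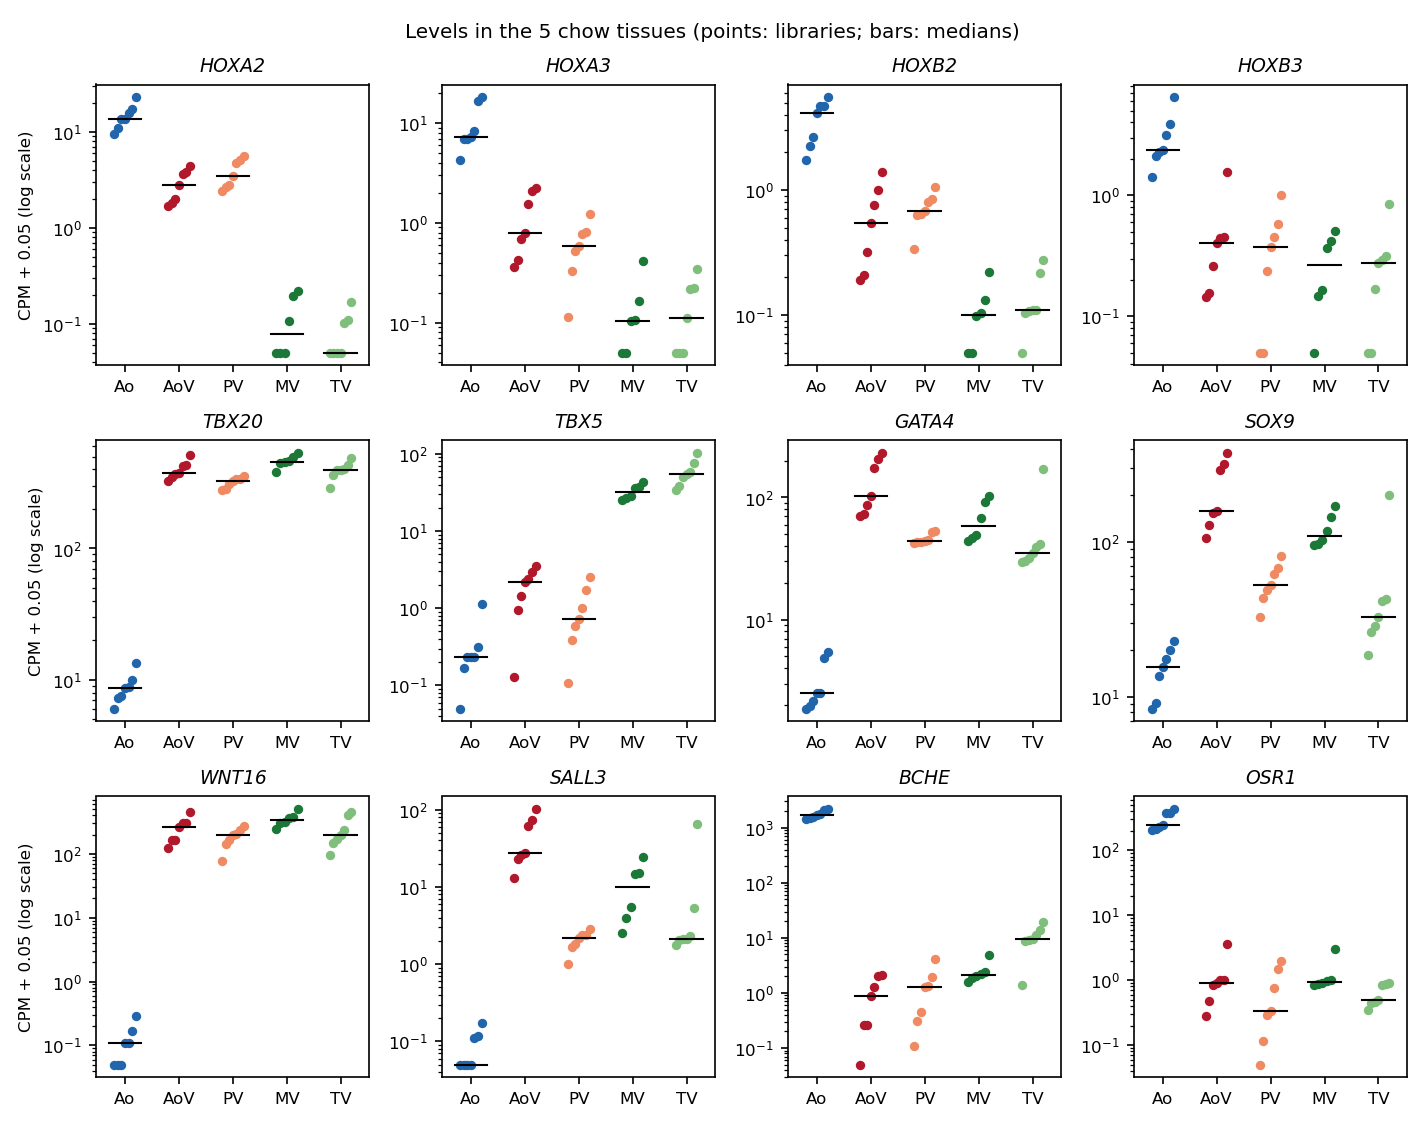
Levels of selected genes in the 5 chow tissues (y axis, CPM + 0.05, log scale), where each point is 1 library and the bar the median. HOXA2 is present in the aorta, aortic and pulmonary valves and near 0 in the mitral and tricuspid valves, whereas TBX5 is highest in the latter pair.

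Elastic fibre genes had 9 of 25 members higher and 10 lower in the AoV (median log2 fold change 0.48). Higher members were fewer in the plate 2 rabbits, with 2 higher and 9 lower, and in the larger valve set, with 5 and 10. Both main fibrillins went opposite ways. FBN1, fibrillin-1 of the microfibrils around elastin, was at 668 to 1425 CPM in the valve, median 1208, and 2987 to 4238 CPM in the aorta, median 3341 (log2 fold change -1.57 ± 0.17, adjusted p = 0.000101). FBN2, fibrillin-2, known mostly from developing elastic tissue, was at 147 to 357 CPM in the valve, median 215, and 0.781 to 4.58 CPM in the aorta, median 2.78 (log2 fold change 6.47 ± 0.29, adjusted p = 1.03e-06). Neither fibrillin overlapped between tissues. FBLN5, fibulin-5, which is needed to assemble elastic fibres, was at 50.7 to 240.4 CPM in the valve, median 133, and 760.4 to 1426 CPM in the aorta, median 1118 (log2 fold change -3.12 ± 0.26, adjusted p = 2.54e-05). MMRN1, multimerin-1 of platelets and endothelium, had 0.0708 to 1.05 CPM in the valve, median 0.316, and 14.8 to 222 CPM in the aorta, median 121 (log2 fold change -7.74 ± 0.54, adjusted p = 9.37e-06). MFAP3L, a membrane protein related to a microfibril-associated protein, had 2.42 to 8.08 CPM in the valve, median 5.31, and 286 to 394 CPM in the aorta, median 352 (log2 fold change -6.30 ± 0.29, adjusted p = 1.06e-06). The last 3 genes were lower in the AoV of every rabbit. MMRN2, multimerin-2 of the endothelium, was higher with 6.42 to 50.8 CPM in the valve, median 15.3, and 2.30 to 9.11 CPM in the aorta, median 5.71 (log2 fold change 1.79 ± 0.35, adjusted p = 0.00303), and its ranges overlapped.

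Collagen chains were mostly higher in the AoV. Of 29 tested, 18 were higher and 6 lower, with a median log2 fold change of 2.17. Without rabbit L08256 the lower members numbered 3, as they did without TMM scaling. In the plate 2 rabbits 12 of 29 were higher and 4 lower (median log2 fold change 1.61). The larger valve set had 13 higher and 5 lower (1.35). COL11A1, a chain of the cartilage fibril collagen XI, was at 104 to 181.1 CPM in the valve, median 123, and 0.353 to 2.04 CPM in the aorta, median 1.02 (log2 fold change 6.92 ± 0.35, adjusted p = 1.84e-06). COL6A6, a chain of the beaded filament collagen VI, had 123 to 337 CPM in the valve, median 213, and 7.11 to 17.6 CPM in the aorta, median 10.5 (log2 fold change 4.35 ± 0.27, adjusted p = 4.64e-06). COL8A1, of the short-chain collagen VIII, had 84.9 to 157.4 CPM in the valve, median 112, and 11.5 to 20.3 CPM in the aorta, median 13.2 (log2 fold change 2.99 ± 0.16, adjusted p = 2.05e-06). All 3 were separate between tissues. COL12A1, which decorates collagen I fibrils, was picked after its values were seen and stood at 1657 to 4186 CPM in the valve, median 3333, and 87.9 to 196.3 CPM in the aorta, median 139 (log2 fold change 4.36 ± 0.29, adjusted p = 7.61e-06). COL2A1, the main collagen of cartilage, was low in both tissues with 2.86 to 31.2 CPM in the valve, median 12.2, and 0.180 to 8.996 CPM in the aorta, median 0.363 (log2 fold change 4.36 ± 0.66, adjusted p = 0.000842), and the highest Ao library, from rabbit L08256, overlapped the AoV range.

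The major fibrillar collagens differed less. COL1A1, of collagen I, was at 868 to 7251 CPM in the valve, median 2528, and 267.9 to 1628 CPM in the aorta, median 647, and the groups overlapped. Its call (log2 fold change 2.17 ± 0.57, adjusted p = 0.0126) was lost in the plate 2 rabbits (log2 fold change 1.61, adjusted p = 0.161) and in the larger valve set (log2 fold change 1.35, adjusted p = 0.102). COL3A1, of collagen III, was at 3501 to 7327 CPM in the valve, median 5659, and 3205 to 8870 CPM in the aorta, median 4632, and was no DEG (log2 fold change 0.11 ± 0.29, adjusted p = 0.767). Among the lower chains was COL21A1, a fibril-associated collagen, with 162 to 306 CPM in the valve, median 204, and 356 to 472 CPM in the aorta, median 430.4 (log2 fold change -1.02 ± 0.14, adjusted p = 0.000495). Another was COL28A1, a chain found around peripheral nerve, with 0.0527 to 1.36 CPM in the valve, median 0.721, and 2.88 to 24.3 CPM in the aorta, median 6.76 (log2 fold change -3.65 ± 0.60, adjusted p = 0.00135).

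Proteoglycan and hyaluronan genes had 23 of 43 members higher and 8 lower (median log2 fold change 1.30). The plate 2 rabbits had 20 higher and 5 lower. ACAN, which encodes aggrecan, the large proteoglycan of cartilage, was at 230.6 to 579.2 CPM in the valve, median 269.7, and 4.67 to 36.8 CPM in the aorta, median 9.01 (log2 fold change 4.70 ± 0.35, adjusted p = 1.4e-05). VCAN, versican of soft matrix, was at 4202 to 8539 CPM in the valve, median 5633, and 2197 to 2713 CPM in the aorta, median 2528 (log2 fold change 1.29 ± 0.16, adjusted p = 0.000298). HAPLN1, the link protein that ties both to hyaluronan, was at 72.1 to 159.4 CPM in the valve, median 106, and 17.6 to 36.4 CPM in the aorta, median 28.5 (log2 fold change 2.10 ± 0.24, adjusted p = 0.000176). The tissues did not overlap for any of these. HAS2, a hyaluronan synthase, had 31.9 to 85.5 CPM in the valve, median 53.8, and 1.21 to 5.77 CPM in the aorta, median 2.59 (log2 fold change 4.45 ± 0.42, adjusted p = 5.52e-05), and CEMIP2, a surface protein linked to hyaluronan breakdown, had 184.5 to 313 CPM in the valve, median 205, and 20.8 to 31.5 CPM in the aorta, median 24.4 (log2 fold change 3.16 ± 0.16, adjusted p = 1.31e-06). Its relative CEMIP, which takes part in the breakdown of hyaluronan, had 9.62 to 48.2 CPM in the valve, median 21.6, and 0.705 to 3.03 CPM in the aorta, median 2.34 (log2 fold change 3.61 ± 0.29, adjusted p = 1.98e-05). PRELP, a small leucine-rich proteoglycan, had 1092 to 3432 CPM in the valve, median 1997, and 89.1 to 359.8 CPM in the aorta, median 172.01 (log2 fold change 3.497 ± 0.37, adjusted p = 0.000105). All of these were also higher in the AoV of all 7 rabbits. GPC6, a glypican of the cell surface, was lower with 4.25 to 17.5 CPM in the valve, median 5.55, and 102 to 165 CPM in the aorta, median 127 (log2 fold change -4.32 ± 0.22, adjusted p = 1.84e-06), as was the glypican GPC3 with 0.991 to 5.82 CPM in the valve, median 1.94, and 3.39 to 17.5 CPM in the aorta, median 6.17 (log2 fold change -1.73 ± 0.27, adjusted p = 0.000933). BGN, biglycan, was at 689 to 1092 CPM in the valve, median 760.0, and 574.9 to 1357 CPM in the aorta, median 913, and was no DEG (log2 fold change -0.23, adjusted p = 0.327). HAS2 and PRELP were named after their values were seen.

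Of the cartilage and tendon genes, 17 of 21 were higher in the AoV and 1 was lower, with a median log2 fold change of 2.47. The levels of these 17 higher members did not overlap with the Ao. TNC, tenascin-C, had 93.2 to 250.6 CPM in the valve, median 158.7, and 3.90 to 17.8 CPM in the aorta, median 12.4 (log2 fold change 3.73 ± 0.20, adjusted p = 2.28e-06). MATN2, a matrilin that bridges matrix filaments, had 248.8 to 359 CPM in the valve, median 309, and 43.4 to 69.4 CPM in the aorta, median 61.5 (log2 fold change 2.40 ± 0.14, adjusted p = 2.89e-06). CHI3L1, given above, had the smallest p of the list. The lower member was CNMD, chondromodulin, an inhibitor of vessel growth that cartilage makes, with 1.49 to 8.75 CPM in the valve, median 6.32, and 46.9 to 252 CPM in the aorta, median 106 (log2 fold change -4.14 ± 0.42, adjusted p = 8.29e-05).

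Genes of mineralization and its inhibitors were 8 higher and 6 lower of 24 (median log2 fold change 0.23). The lower calls depended on the fit, with 6 higher and 1 lower in the plate 2 rabbits, where the median was -0.006, and 9 higher and 3 lower without TMM scaling. ALPL, the alkaline phosphatase that frees phosphate for mineral, had 1.63 to 14.7 CPM in the valve, median 3.42, and 0.120 to 0.960 CPM in the aorta, median 0.363, and its groups were separate. Its call (log2 fold change 3.22 ± 0.79, adjusted p = 0.00892) was lost in the plate 2 rabbits (log2 fold change 2.14, adjusted p = 0.131). BGLAP, osteocalcin, was at 12.3 to 35.1 CPM in the valve, median 18.7, and 0.941 to 5.47 CPM in the aorta, median 1.46 (log2 fold change 3.42 ± 0.25, adjusted p = 1.22e-05). POSTN, periostin, a matricellular protein of valves and bone, was at 2715 to 4948 CPM in the valve, median 3093, and 305 to 765 CPM in the aorta, median 369 (log2 fold change 2.99 ± 0.33, adjusted p = 0.000145). BGLAP and POSTN had no overlap between tissues, and POSTN was named after its values were seen. MGP, matrix Gla protein, an inhibitor of arterial calcification, was at 700.4 to 2686 CPM in the valve, median 1922, and 1766 to 5160 CPM in the aorta, median 4002. MGP was called lower (log2 fold change -1.20 ± 0.38, adjusted p = 0.0271), but not in the plate 2 rabbits (log2 fold change -0.90, adjusted p = 0.196), in the larger valve set (log2 fold change -0.41, adjusted p = 0.255) nor without rabbit L08256 (log2 fold change -1.07), L08313 (-1.20) or L08719 (-1.05). ANKH, which exports the mineral inhibitor pyrophosphate, had 129 to 195.1 CPM in the valve, median 156.7, and 194.7 to 293 CPM in the aorta, median 238.3 (log2 fold change -0.62 ± 0.11, adjusted p = 0.00226), and it lost the call in the plate 2 rabbits (log2 fold change -0.62, adjusted p = 0.0515), in the larger valve set (log2 fold change -0.56, adjusted p = 0.00963, with a fold under 1.5) and without rabbit L08256 (-0.57). CTSK, the collagen-degrading cathepsin K, had 61.7 to 174.6 CPM in the valve, median 121, and 250.3 to 448 CPM in the aorta, median 314 (log2 fold change -1.55 ± 0.25, adjusted p = 0.00122). SPP1, osteopontin, was at 43.6 to 98.1 CPM in the valve, median 52.9, and 21.6 to 88.1 CPM in the aorta, median 55.8, and was no DEG (log2 fold change 0.31, adjusted p = 0.412). RUNX2, the master factor of bone cells, stayed under the filter on low counts, with 0.0708 to 1.16 CPM in the valve, median 0.261, and 0 to 0.840 CPM in the aorta, median 0.180.

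Metalloproteinases and their inhibitors had 13 of 38 members higher and 10 lower (median log2 fold change 0.43). In the plate 2 rabbits 6 were higher and 7 lower, and the larger valve set had 8 of each. ADAMTS19, a protease whose loss is known to cause valve disease, was at 38.4 to 80.7 CPM in the valve, median 55.4, and 0.479 to 2.26 CPM in the aorta, median 1.29 (log2 fold change 5.37 ± 0.23, adjusted p = 9.4e-07). ADAMTS3, a procollagen-processing protease, was at 72.0 to 142 CPM in the valve, median 115, and 3.35 to 11.1 CPM in the aorta, median 7.63 (log2 fold change 3.95 ± 0.27, adjusted p = 8.26e-06). TIMP3, a matrix-bound inhibitor, had 1046 to 2488 CPM in the valve, median 1414, and 295 to 562.96 CPM in the aorta, median 470.0 (log2 fold change 1.72 ± 0.15, adjusted p = 3.23e-05). The lower members with the smallest p were ADAMTS9, which cleaves versican, with 7.11 to 22.7 CPM in the valve, median 13.4, and 114 to 417 CPM in the aorta, median 268.5 (log2 fold change -4.43 ± 0.27, adjusted p = 4.34e-06), and ADAM19 with 8.74 to 19.3 CPM in the valve, median 12.5, and 57.2 to 109 CPM in the aorta, median 88.0 (log2 fold change -2.74 ± 0.25, adjusted p = 4.27e-05). None of the 5 overlapped between AoV and Ao.

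TGF-beta and BMP signaling had 18 higher and 15 lower of 49 (median log2 fold change 0.35). These counts became 24 and 9 without TMM scaling, 12 and 8 in the plate 2 rabbits and 13 and 8 in the larger valve set, where the median was -0.036. Ligands led the higher side. BMP6 was at 31.2 to 69.0 CPM in the valve, median 40.8, and 0.121 to 1.33 CPM in the aorta, median 0.364 (log2 fold change 6.54 ± 0.34, adjusted p = 2.12e-06), and BMP5 at 27.7 to 74.7 CPM in the valve, median 43.5, and 0.544 to 1.62 CPM in the aorta, median 0.730 (log2 fold change 5.70 ± 0.30, adjusted p = 2.19e-06). BMPER, a secreted BMP modulator, had 18.3 to 28.2 CPM in the valve, median 22.6, and 1.29 to 5.999 CPM in the aorta, median 4.85 (log2 fold change 2.49 ± 0.28, adjusted p = 0.000158). A receptor and an intracellular mediator led the lower side. BMPR1B, a type I BMP receptor, had 0.283 to 1.41 CPM in the valve, median 0.776, and 5.76 to 15.2 CPM in the aorta, median 12 (log2 fold change -3.99 ± 0.26, adjusted p = 4.79e-06), and SMAD9, which passes the BMP signal to the nucleus, had 13.6 to 18.1 CPM in the valve, median 16, and 104 to 141 CPM in the aorta, median 112 (log2 fold change -2.91 ± 0.13, adjusted p = 9.4e-07). The tissues were separate for these 5 genes.

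In Wnt signaling, 19 of 42 genes were higher and 6 lower in the AoV (median log2 fold change 0.99). WNT16 (ENSOCUG00000014744), a secreted ligand, was at 125 to 453 CPM in the valve, median 267.04, and 0 to 0.240 CPM in the aorta, median 0.0605 (log2 fold change 11.66 ± 0.52, adjusted p = 9.4e-07). Only 8 read pairs of it were counted in all 7 Ao libraries, against 32421 in the AoV. RSPO2, a secreted enhancer of the Wnt receptor, was at 38.5 to 88.7 CPM in the valve, median 54.3, and 0 to 0.661 CPM in the aorta, median 0.2996 (log2 fold change 7.63 ± 0.47, adjusted p = 4.68e-06), and LEF1, a transcription factor that acts with β-catenin, was at 39.5 to 84.0 CPM in the valve, median 66.8, and 0.423 to 1.53 CPM in the aorta, median 0.545 (log2 fold change 6.22 ± 0.33, adjusted p = 2.15e-06). DKK2, a modulator of the Wnt coreceptor, was likewise higher with 28 to 61.6 CPM in the valve, median 45.2, and 1.35 to 3.88 CPM in the aorta, median 2.52 (log2 fold change 4.07 ± 0.30, adjusted p = 1.38e-05). A ligand, a receptor enhancer, a modulator and a nuclear effector thus stood higher together. The lower members with the smallest p were receptors. ROR1, a Wnt5a receptor, had 4.12 to 11.7 CPM in the valve, median 6.32, and 94.3 to 146 CPM in the aorta, median 121 (log2 fold change -4.24 ± 0.23, adjusted p = 2.39e-06), and LGR4, a receptor for R-spondins, had 6.02 to 19.9 CPM in the valve, median 13.6, and 41.5 to 66.1 CPM in the aorta, median 59.3 (log2 fold change -2.32 ± 0.20, adjusted p = 3.17e-05). AoV and Ao did not overlap for any of the 6.

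Notch signaling had 7 higher and 5 lower of 19 (median log2 fold change 0.58). The ligand gene JAG1 was at 116 to 164 CPM in the valve, median 148, and 225 to 283 CPM in the aorta, median 249.8 (log2 fold change -0.81 ± 0.12, adjusted p = 0.000791), and the target gene HEY2, a transcriptional repressor of arterial development, at 21.1 to 52.0 CPM in the valve, median 30.3, and 66.4 to 78.1 CPM in the aorta, median 70.0 (log2 fold change -1.24 ± 0.17, adjusted p = 0.000448). DNER, a Notch ligand of neural tissue, was lower with 2.74 to 20.3 CPM in the valve, median 7.84, and 16.2 to 56.0 CPM in the aorta, median 33.9 (log2 fold change -2.06 ± 0.21, adjusted p = 9.17e-05). On the higher side were DTX4, a ubiquitin ligase of the pathway, with 12.3 to 26.8 CPM in the valve, median 20.7, and 6.97 to 11.7 CPM in the aorta, median 8.71 (log2 fold change 1.17 ± 0.21, adjusted p = 0.00185), and MFNG, a glycosyltransferase that modifies Notch, with 3.46 to 18.5 CPM in the valve, median 4.10, and 0.606 to 5.40 CPM in the aorta, median 1.44 (log2 fold change 2.07 ± 0.41, adjusted p = 0.00355). MAML3, a coactivator of Notch target genes, had 32.1 to 75.5 CPM in the valve, median 35.1, and 15.3 to 27.7 CPM in the aorta, median 19.0 (log2 fold change 1.06 ± 0.23, adjusted p = 0.0051), and was not called in the plate 2 rabbits (log2 fold change 0.86, adjusted p = 0.0557). The MFNG call was lost in the plate 2 rabbits (log2 fold change 1.56, adjusted p = 0.0716), where 1 member of the list was higher and 5 were lower. NOTCH1 was not analysed here by name. The larger valve set had 4 higher and 5 lower.

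**Figure D4:**
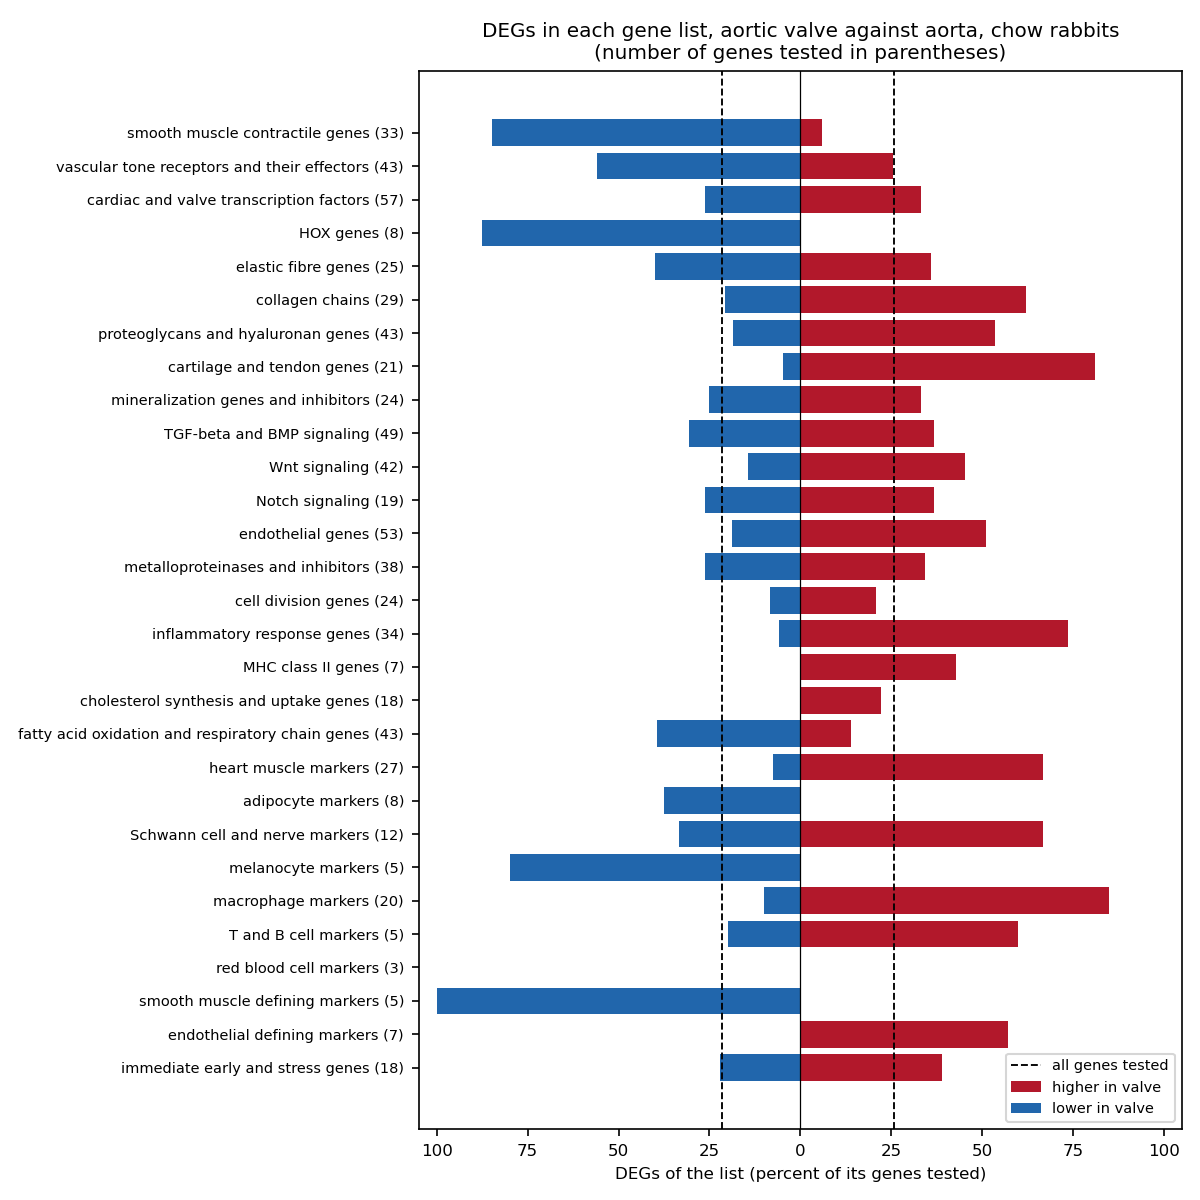
Counts of DEGs higher and lower in the chow aortic valve for each gene list (x axis, percent of the members tested), with the shares over all genes of 25.9% and 21.5% as reference lines. Smooth muscle contractile genes have 28 of 33 members lower, and cartilage and tendon genes 17 of 21 higher.

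Endothelial genes had 27 of 53 members higher and 10 lower (median log2 fold change 1.05). In the plate 2 rabbits 27 were also higher, but 5 lower. PECAM1, a junction protein of endothelial cells, was at 18.9 to 262.7 CPM in the valve, median 177.8, and 21.0 to 51.9 CPM in the aorta, median 48.7, and its groups overlapped. The AoV of rabbit L08313 held the lowest level of all 14 libraries. Its call (log2 fold change 1.81 ± 0.52, adjusted p = 0.0184) was lost without rabbit L08256 (log2 fold change 1.66). VWF, von Willebrand factor, was at 16.2 to 223 CPM in the valve, median 80.5, and 17.8 to 37.0 CPM in the aorta, median 26.6 (log2 fold change 1.70 ± 0.37, adjusted p = 0.0053), with the lowest AoV value again in L08313. Endothelial RNA of that library was low in both cases. TEK, the angiopoietin receptor, was at 27.2 to 112 CPM in the valve, median 79.3, and 6.58 to 23.0 CPM in the aorta, median 15.5 (log2 fold change 2.15 ± 0.37, adjusted p = 0.00176). Higher levels without overlap were also seen for PROCR, the protein C receptor, with 32.5 to 74.6 CPM in the valve, median 50.1, and 2.65 to 7.23 CPM in the aorta, median 4.56 (log2 fold change 3.46 ± 0.25, adjusted p = 1.2e-05). RAMP2, the partner of the adrenomedullin receptor, was at 38.1 to 111 CPM in the valve, median 63.5, and 4.53 to 14 CPM in the aorta, median 8.71 (log2 fold change 3.01 ± 0.26, adjusted p = 3.54e-05). These receptors were thus higher in every rabbit. Lower in the AoV were MCAM, an adhesion molecule of smooth muscle and endothelium, with 3.74 to 16.2 CPM in the valve, median 12.3, and 709.7 to 1664 CPM in the aorta, median 985 (log2 fold change -6.64 ± 0.31, adjusted p = 1.15e-06), and ANGPT2, a ligand of TEK, with 0.222 to 1.49 CPM in the valve, median 0.782, and 31.2 to 98.6 CPM in the aorta, median 41.5 (log2 fold change -6.02 ± 0.38, adjusted p = 4.95e-06). Among the 7 defining markers, 4 were higher and 0 lower (median log2 fold change 1.70), and without the 3 rabbits with most heart muscle RNA 3 were higher and 1 lower. Without L08742 alone 4 were higher and 1 lower. The larger valve set had 2 of these markers higher, and neither PECAM1 (log2 fold change 1.84, adjusted p = 0.139) nor VWF (log2 fold change 1.06, adjusted p = 0.0765) was called there.

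Inflammatory response genes were mostly higher in the AoV, with 25 of 34 higher and 2 lower (median log2 fold change 1.73). CXCR4, a chemokine receptor, had 4.39 to 36.0 CPM in the valve, median 10, and 0.180 to 0.727 CPM in the aorta, median 0.353 (log2 fold change 4.86 ± 0.31, adjusted p = 4.95e-06). PTX3, pentraxin 3 of innate immunity, had 7.65 to 23.6 CPM in the valve, median 17.1, and 0.176 to 1.62 CPM in the aorta, median 0.480 (log2 fold change 4.83 ± 0.36, adjusted p = 1.34e-05). Both were separate from the Ao, as was CHI3L1, the member with the smallest p. TLR6, a Toll-like receptor, was lower with 1.17 to 4.22 CPM in the valve, median 2.16, and 7.14 to 14.3 CPM in the aorta, median 11.7 (log2 fold change -2.34 ± 0.27, adjusted p = 0.000168). ANXA1, annexin A1, a mediator that ends inflammation, was called lower with 92.1 to 395 CPM in the valve, median 269.9, and 270.6 to 669 CPM in the aorta, median 442 (log2 fold change -1.17 ± 0.41, adjusted p = 0.0367). Its call was lost in the plate 2 rabbits (log2 fold change -1.01, adjusted p = 0.192), in the larger valve set (log2 fold change -0.28, adjusted p = 0.356) and without rabbit L08256 (log2 fold change -0.99), L08273 (-0.89), L08286 (-1.27), L08313 (-1.27) or L08719 (-1.0). The lower members numbered 1 without rabbit L08256, L08273, L08286, L08313 or L08719, and likewise in the plate 2 rabbits, the larger valve set and without TMM scaling.

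Macrophage markers had 17 of 20 members higher and 2 lower (median log2 fold change 1.65). They summed to 276.8 to 751 CPM in the valve and 116 to 463 CPM in the aorta, so that the ranges overlapped. CSF1R, the receptor that keeps macrophages alive, was at 39.0 to 128 CPM in the valve, median 86.2, and 12.7 to 36.8 CPM in the aorta, median 19.9 (log2 fold change 1.85 ± 0.27, adjusted p = 0.000681). CD68, of macrophage lysosomes, had 15.4 to 34.1 CPM in the valve, median 27.3, and 7.70 to 18.0 CPM in the aorta, median 9.89 (log2 fold change 1.18 ± 0.18, adjusted p = 0.000886). C1QC, a chain of complement C1q, had 27.7 to 123 CPM in the valve, median 56.9, and 7.25 to 53.2 CPM in the aorta, median 13.9 (log2 fold change 1.69 ± 0.31, adjusted p = 0.00248) and was higher in all 7 rabbits. MRC1, the mannose receptor, was at 57.6 to 286 CPM in the valve, median 130.3, and 15.1 to 122 CPM in the aorta, median 57.9, and was no DEG (log2 fold change 1.35, adjusted p = 0.0952). CD163, the haemoglobin scavenger receptor, had 11.6 to 69.3 CPM in the valve, median 50.3, and 3.998 to 27.6 CPM in the aorta, median 12.8 (log2 fold change 1.64 ± 0.53, adjusted p = 0.0287), and was higher in 5 of 7 rabbits. The CD163 call was lost without rabbit L08256 (log2 fold change 1.59), L08286 (1.69), L08709 (1.37) or L08719 (1.67). In the 4 plate 2 rabbits 16 members were higher and 0 lower, and without TMM scaling 18 and 1. The 2 lower members dropped to 1 without rabbit L08256 and to 0 without L08719. They were 0 in the larger valve set, where CD163 was not called (log2 fold change 2.08, adjusted p = 0.0801).

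Genes of MHC class II had 3 of 7 higher and 0 lower (median log2 fold change 1.17). The plate 2 rabbits gave the same counts with a median of 0.43. CD74, the invariant chain, was at 48.3 to 135 CPM in the valve, median 111, and 19.2 to 55.5 CPM in the aorta, median 26.1 (log2 fold change 1.73 ± 0.23, adjusted p = 0.000398). HLA-DMA, which loads peptide, had 3.58 to 6.71 CPM in the valve, median 4.66, and 0.727 to 1.63 CPM in the aorta, median 1.14 (log2 fold change 1.94 ± 0.27, adjusted p = 0.00044). HLA-DRA, the α chain of HLA-DR, had 7.58 to 24.3 CPM in the valve, median 14.3, and 3.999 to 19.2 CPM in the aorta, median 5.31 (log2 fold change 1.17 ± 0.40, adjusted p = 0.034). Its groups overlapped, and the call was lost without any 1 of 6 rabbits (log2 fold change 0.97 to 1.22), while it held without L08273. Of the T and B cell markers 5 passed the filter, of which 3 were higher and 1 lower (median log2 fold change 2.01). Without rabbit L08256 these were 2 and 0, and the lower member was also lost without L08313, L08709, L08719 or L08742 and in the larger valve set. The plate 2 rabbits had 1 higher and 1 lower, and without TMM scaling 3 were higher and 0 lower. Their summed levels were low, with 10.2 to 25.2 CPM in the valve and 2.84 to 22.5 CPM in the aorta. PAX5, the B cell identity factor, had 1.69 to 14.9 CPM in the valve, median 6.42, and 0 to 1.68 CPM in the aorta, median 0.240 (log2 fold change 4.42 ± 1.01, adjusted p = 0.00666), and was not called in the plate 2 rabbits (log2 fold change 3.37, adjusted p = 0.0978). BLNK, an adaptor of the B cell receptor, was at 3.26 to 6.26 CPM in the valve, median 4.88, and 0.823 to 1.80 CPM in the aorta, median 1.02 (log2 fold change 2.01 ± 0.26, adjusted p = 0.000304), without overlap. The lower member was JCHAIN, the joining chain of secreted antibodies, with 0.637 to 2.50 CPM in the valve, median 1.04, and 0.907 to 9.90 CPM in the aorta, median 1.79 (log2 fold change -1.03 ± 0.37, adjusted p = 0.0395) and log2 fold change -0.82, adjusted p = 0.256 in the larger valve set.

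Genes of fatty acid oxidation and the respiratory chain had 6 of 43 higher and 17 lower (median log2 fold change -0.35). Without TMM scaling the direction of the split turned, with 11 higher and 9 lower. IDH2, a mitochondrial isocitrate dehydrogenase, was at 81.8 to 219.7 CPM in the valve, median 97.8, and 352 to 436 CPM in the aorta, median 411 (log2 fold change -1.91 ± 0.22, adjusted p = 0.00017). PDK4, which restrains the entry of pyruvate into mitochondria, was at 38.0 to 194.8 CPM in the valve, median 179.7, and 6.35 to 15.1 CPM in the aorta, median 10.2 (log2 fold change 3.23 ± 0.41, adjusted p = 0.000311). UCP2, a mitochondrial carrier, had 9.16 to 18.3 CPM in the valve, median 14.2, and 2.73 to 7.03 CPM in the aorta, median 5.11 (log2 fold change 1.53 ± 0.23, adjusted p = 0.000723). All 3 were separate between the tissues. On the lower side, NDUFV2, a subunit of complex I, was at 15.5 to 33.4 CPM in the valve, median 26.1, and 35.6 to 61.0 CPM in the aorta, median 50.1 (log2 fold change -1.05 ± 0.19, adjusted p = 0.00191), and SDHC, a membrane anchor of complex II, at 21.5 to 60.5 CPM in the valve, median 41.0, and 69.7 to 103 CPM in the aorta, median 85.5 (log2 fold change -1.10 ± 0.22, adjusted p = 0.00354). Both were lower in all 7 rabbits. In the plate 2 rabbits 4 members were higher and 4 lower. The larger valve set gave 3 higher and 10 lower.

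Cholesterol synthesis and uptake genes had 4 of 18 members higher and 0 lower (median log2 fold change 0.03), and 0 were called in the plate 2 rabbits, against 7 higher without TMM scaling. SREBF2, the transcription factor of that pathway, was at 56.3 to 485 CPM in the valve, median 141, and 16.3 to 76.3 CPM in the aorta, median 38.2 (log2 fold change 1.99 ± 0.51, adjusted p = 0.0113). LSS, lanosterol synthase, was at 30.6 to 106 CPM in the valve, median 55.2, and 10 to 28.2 CPM in the aorta, median 19.9 (log2 fold change 1.57 ± 0.39, adjusted p = 0.00958). MVK, mevalonate kinase, was at 5.02 to 27.4 CPM in the valve, median 10.1, and 1.62 to 5.76 CPM in the aorta, median 3.59 (log2 fold change 1.53 ± 0.47, adjusted p = 0.0225), and lost its call without rabbit L08313 (log2 fold change 1.36) or L08719 (1.41). In the plate 2 rabbits SREBF2 (log2 fold change 1.35, adjusted p = 0.104), LSS (log2 fold change 1.14, adjusted p = 0.0986) and MVK (log2 fold change 1.08, adjusted p = 0.0823) were not called, and the median of the list was -0.18. The counts were 2 higher and 2 lower without rabbit L08313, 4 and 4 without L08709, and 2 and 0 without L08719. With edgeR none was called in the larger valve set, including SREBF2 (log2 fold change 1.26, adjusted p = 0.0934), LSS (log2 fold change 0.93, adjusted p = 0.118) and MVK (log2 fold change 0.93, adjusted p = 0.14).

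Cell division genes were called in few cases, with 5 of 24 higher and 2 lower (median log2 fold change 0.26). They were 3 and 1 in the plate 2 rabbits and 6 and 1 without TMM scaling. MCM2, of the helicase that opens replication origins, had 9.39 to 21.3 CPM in the valve, median 12.3, and 2.73 to 6.72 CPM in the aorta, median 4.21 (log2 fold change 1.56 ± 0.29, adjusted p = 0.00248). MCM5 of the same helicase had 4.27 to 18.9 CPM in the valve, median 11.3, and 0.970 to 3.76 CPM in the aorta, median 2.24 (log2 fold change 2.25 ± 0.37, adjusted p = 0.00123), and neither overlapped between the tissues. NCAPH, a condensin subunit, had 6.02 to 15.1 CPM in the valve, median 12.3, and 2.46 to 6.59 CPM in the aorta, median 4.57 (log2 fold change 1.29 ± 0.26, adjusted p = 0.0039). ANLN, anillin, a scaffold protein of cytokinesis, had the smallest p on the lower side. It was at 0.782 to 3.33 CPM in the valve, median 2.11, and 4.99 to 23.8 CPM in the aorta, median 6.65, without overlap and lower in all 7 rabbits (log2 fold change -2.20 ± 0.30, adjusted p = 0.000427). The call of ANLN held in the plate 2 rabbits (log2 fold change -2.40, adjusted p = 0.0125). PCNA, the sliding clamp of replication, was lower with 4.92 to 26.3 CPM in the valve, median 13.1, and 22.0 to 46.3 CPM in the aorta, median 28.7 (log2 fold change -1.28 ± 0.39, adjusted p = 0.0231). PCNA lost its call in the plate 2 rabbits (log2 fold change -1.04, adjusted p = 0.144) and without rabbit L08256 (log2 fold change -1.15) or L08719 (-1.15), and the lower members then numbered 1. The same held in the larger valve set (log2 fold change -0.48, adjusted p = 0.152 for PCNA).

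Immediate early and stress genes, which respond within minutes and can mark the handling of tissue, had 7 of 18 higher and 4 lower (median log2 fold change 0.54). EGR1 was at 72.7 to 303 CPM in the valve, median 138, and 7.51 to 31.7 CPM in the aorta, median 17.2 (log2 fold change 3.15 ± 0.43, adjusted p = 0.000458), and CCN1, a matricellular protein, at 226 to 353 CPM in the valve, median 272.2, and 78.9 to 180 CPM in the aorta, median 89.8 (log2 fold change 1.46 ± 0.19, adjusted p = 0.000317). ATF3, a stress-induced repressor, went the other way with 9.30 to 53.5 CPM in the valve, median 15.9, and 64.4 to 614 CPM in the aorta, median 258.98 (log2 fold change -3.50 ± 0.69, adjusted p = 0.0034). JUN, of the transcription factor AP-1, was at 63.1 to 214 CPM in the valve, median 96.7, and 100.8 to 527 CPM in the aorta, median 216, and was no DEG (log2 fold change -0.79, adjusted p = 0.127). HSPB1, a small heat shock protein, was at 97.4 to 454 CPM in the valve, median 186.8, and 87.3 to 324 CPM in the aorta, median 181.7, and was no DEG (log2 fold change 0.08, adjusted p = 0.86). EGR1, CCN1 and ATF3 were each separate between AoV and Ao. The balance of the list changed with the rabbits used. There were 4 higher and 4 lower without rabbit L08313, 4 and 5 without L08719, 3 and 5 in the larger valve set (median log2 fold change -0.0035) and 3 and 4 in the plate 2 rabbits. The list summed to 886 to 1906 CPM in the valve and 754 to 2064 CPM in the aorta, and its part in other results was not tested.

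Heart muscle markers had 18 of 27 members higher and 2 lower in the AoV, with a median log2 fold change of 3.28. MYH7, the β-myosin heavy chain of heart muscle, was at 109 to 9640 CPM in the valve, median 585, and 1.73 to 31.5 CPM in the aorta, median 8.04 (log2 fold change 6.45 ± 1.05, adjusted p = 0.00123), and MB, myoglobin, at 3.32 to 190.9 CPM in the valve, median 11.1, and 0.332 to 1.03 CPM in the aorta, median 0.665 (log2 fold change 4.93 ± 0.79, adjusted p = 0.00115). MYL2, the ventricular myosin light chain, had 9.95 to 907 CPM in the valve, median 54.3, and 0.121 to 4.06 CPM in the aorta, median 0.720 (log2 fold change 6.59 ± 0.80, adjusted p = 0.000257). The highest AoV library of all 3 was that of rabbit L08742, and the lowest AoV library still lay above every Ao library. RYR2, the calcium release channel of the heart, was by contrast lower with 6.83 to 324 CPM in the valve, median 20.3, and 379.6 to 617 CPM in the aorta, median 555 (log2 fold change -4.19 ± 0.79, adjusted p = 0.00271), and not called in the plate 2 rabbits (log2 fold change -2.97, adjusted p = 0.0707). TNNC1, troponin C, was at 10.8 to 275.9 CPM in the valve, median 36.7, and 44.2 to 134 CPM in the aorta, median 75.4, and was no DEG (log2 fold change -1.003, adjusted p = 0.17). SLC8A1, the sodium-calcium exchanger of heart muscle, was at 52.8 to 227.5 CPM in the valve, median 135, and 123 to 165.5 CPM in the aorta, median 147, and was no DEG (log2 fold change -0.29, adjusted p = 0.373). Without rabbit L08742 the counts were 17 higher and 4 lower. Lower members numbered 1 in the larger valve set and 0 in the plate 2 rabbits. Without all 3 rabbits with the most heart muscle RNA the counts were 15 and 5. In that same fit 26 contractile genes were lower and 1 higher, 19 collagen chains higher and 3 lower, and 18 cartilage and tendon genes higher and 1 lower, and 6337 genes (45.7%) were DEGs.

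Schwann cell and nerve markers were divided, with 8 of 12 higher and 4 lower (median log2 fold change 2.203). All 4 lower members and 6 of the higher ones did not overlap between the tissues. The lowest log2 fold change of the list was -4.93 and the highest 5.85. The genes named next are all from the higher side, so they do not stand for the list. NGFR, the low-affinity neurotrophin receptor, was at 9.15 to 64.1 CPM in the valve, median 18.9, and 0 to 1.47 CPM in the aorta, median 0.240 (log2 fold change 5.38 ± 0.93, adjusted p = 0.00169). ERBB3, the neuregulin receptor, had 58.2 to 134 CPM in the valve, median 106, and 4.98 to 16.9 CPM in the aorta, median 9.09 (log2 fold change 3.32 ± 0.25, adjusted p = 1.32e-05), and S100B, a calcium-binding protein of glia and cartilage, had 22.7 to 177.6 CPM in the valve, median 64.0, and 8.17 to 19.3 CPM in the aorta, median 11.1 (log2 fold change 2.36 ± 0.38, adjusted p = 0.00123). The groups were separate for these 3 higher genes. CDH19, a cadherin of glial precursors, was higher with 13.8 to 59.5 CPM in the valve, median 23.7, and 5.82 to 18.6 CPM in the aorta, median 10.3 (log2 fold change 1.56 ± 0.29, adjusted p = 0.00256), and its ranges overlapped. NGFR was named after its values were seen.

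Adipocyte markers had 0 of 8 higher and 3 lower (median log2 fold change -1.68), with ADIPOQ, adiponectin, at 0 to 15.5 CPM in the valve, median 0.939, and 5.82 to 40.1 CPM in the aorta, median 25.5 (log2 fold change -4.26 ± 1.16, adjusted p = 0.0142) and CIDEA, a lipid droplet protein, at 0.355 to 20.9 CPM in the valve, median 2.35, and 33.2 to 70.9 CPM in the aorta, median 60.2 (log2 fold change -4.09 ± 0.69, adjusted p = 0.00143). LPL, lipoprotein lipase, was at 6.67 to 76.2 CPM in the valve, median 23.2, and 1.65 to 93.1 CPM in the aorta, median 22.0, and was no DEG (log2 fold change -0.51, adjusted p = 0.701). Without rabbit L08709 they were 1 and 2, as without TMM scaling. They summed to 20.7 to 142 CPM in the valve and 56.4 to 262.8 CPM in the aorta, with overlapping ranges. Melanocyte markers had 0 of 5 higher and 4 lower (median log2 fold change -0.93), and 1 and 1 in the plate 2 rabbits. Without TMM scaling 0 were higher and 1 lower. MITF, the pigment cell factor also used elsewhere, was at 24 to 42.2 CPM in the valve, median 38.2, and 54.3 to 81.4 CPM in the aorta, median 65.8 (log2 fold change -0.88 ± 0.16, adjusted p = 0.00201). EDNRB, an endothelin receptor, had 4.99 to 14.3 CPM in the valve, median 6.17, and 9.41 to 29.8 CPM in the aorta, median 12.2 (log2 fold change -1.07 ± 0.28, adjusted p = 0.0117), and was not called in the plate 2 rabbits (log2 fold change -0.70, adjusted p = 0.183) nor in the larger valve set (log2 fold change -1.05, adjusted p = 0.0928), where 2 melanocyte markers were lower. SLC45A2, a melanosome transporter, had 6.33 to 13.2 CPM in the valve, median 7.58, and 12.6 to 21.2 CPM in the aorta, median 16.8 (log2 fold change -0.93 ± 0.20, adjusted p = 0.00442), and lost its call in the plate 2 rabbits (log2 fold change -1.01, adjusted p = 0.0583). None of the 3 red blood cell markers that passed the filter was a DEG (median log2 fold change 0.60), and they summed to 12.6 to 154.8 CPM in the valve and 6.35 to 724 CPM in the aorta. That median was negative in the plate 2 rabbits (-1.17), in the larger valve set (-1.59) and in the plate 2 libraries without the block (-2.07). ALAS2, of haem synthesis, was at 11.4 to 147 CPM in the valve, median 43.3, and 6.29 to 697 CPM in the aorta, median 22.5 (log2 fold change 0.60, adjusted p = 0.686). The membrane protein genes EPB42 and SLC4A1 had log2 fold changes of 0.80 (adjusted p = 0.621) and 0.51 (adjusted p = 0.783). The part of these cell types in the other values was not tested.

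The 7 Lard rabbits, which share no library with the chow ones, gave a second comparison of AoV and Ao under another diet and with vitamin D2. Of 13887 genes tested there, 4325 (31.1%) were DEGs, 2429 (17.5%) higher and 1896 (13.7%) lower in the AoV. Of the 6373 chow DEGs tested in Lard, 3449 (54.1%) were called the same way and 4 the other way. Those 3449 are 82.3% of the 4193 Lard DEGs that were tested in chow. The sign was the same for 6100 chow DEGs (95.7%). A test of the difference between both comparisons found 0 of 14893 genes past the threshold with edgeR (2981 had p under 0.05 before adjustment, and the smallest adjusted p was 0.118). A filter-free fit gave 0 of 25714 and DESeq2 size factors 0 of 14893. Of the 148 DEGs named here, 147 were tested in Lard, of which 39 were not called there and the others were called the same way, and 139 had the same sign.

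Several genes with wide gaps in chow were called the same way in Lard. MYH11 had a Lard log2 fold change of -9.06 ± 0.70 (adjusted p = 4.43e-06), and ACTA2 of -5.25 ± 0.29 (adjusted p = 5.37e-07). TBX20 had 4.56 ± 0.27 (adjusted p = 7.53e-07) and WNT16 11.47 ± 0.37 (adjusted p = 6.53e-08). BCHE had -10.77 ± 0.75 (adjusted p = 2.38e-06) and OSR1 -8.82 ± 0.62 (adjusted p = 2.2e-06). Smooth muscle contractile genes had 29 of 33 lower and 2 higher in Lard. Of the 8 HOX genes that passed the filter there, 7 were lower.

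Lists of cartilage, immune and endothelial genes gave other counts in Lard. Cartilage and tendon genes had 12 of 21 higher and 2 lower (median log2 fold change 1.63), and collagen chains 8 of 29 higher and 6 lower (0.40). Macrophage markers had 1 of 20 higher and 2 lower (-0.26). Inflammatory response genes had 12 of 34 higher and 1 lower (0.37), and endothelial genes 15 of 52 higher and 18 lower (-0.16). Heart muscle markers had 5 of 23 higher and 8 lower (0.47). No gene of these lists passed the test of the difference, so the counts stand side by side only.

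The following genes were picked after their values were seen. COL2A1 had a log2 fold change of 4.36 in chow and -3.11 in Lard, and COL11A1 6.92 and 1.53. ACAN had 4.70 and 1.59, with Lard levels of 125 to 424 CPM in the AoV and 6.01 to 427 CPM in the Ao. CD163 had 1.64 and -0.53, CD74 1.73 and 0.00, and PECAM1 1.81 and -0.17. The unadjusted p of the difference was 0.000193 for COL2A1, 0.000326 for COL11A1 and 0.000759 for ACAN, and the adjusted p was 0.118, 0.118 and 0.118 by edgeR.

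**Figure D5:**
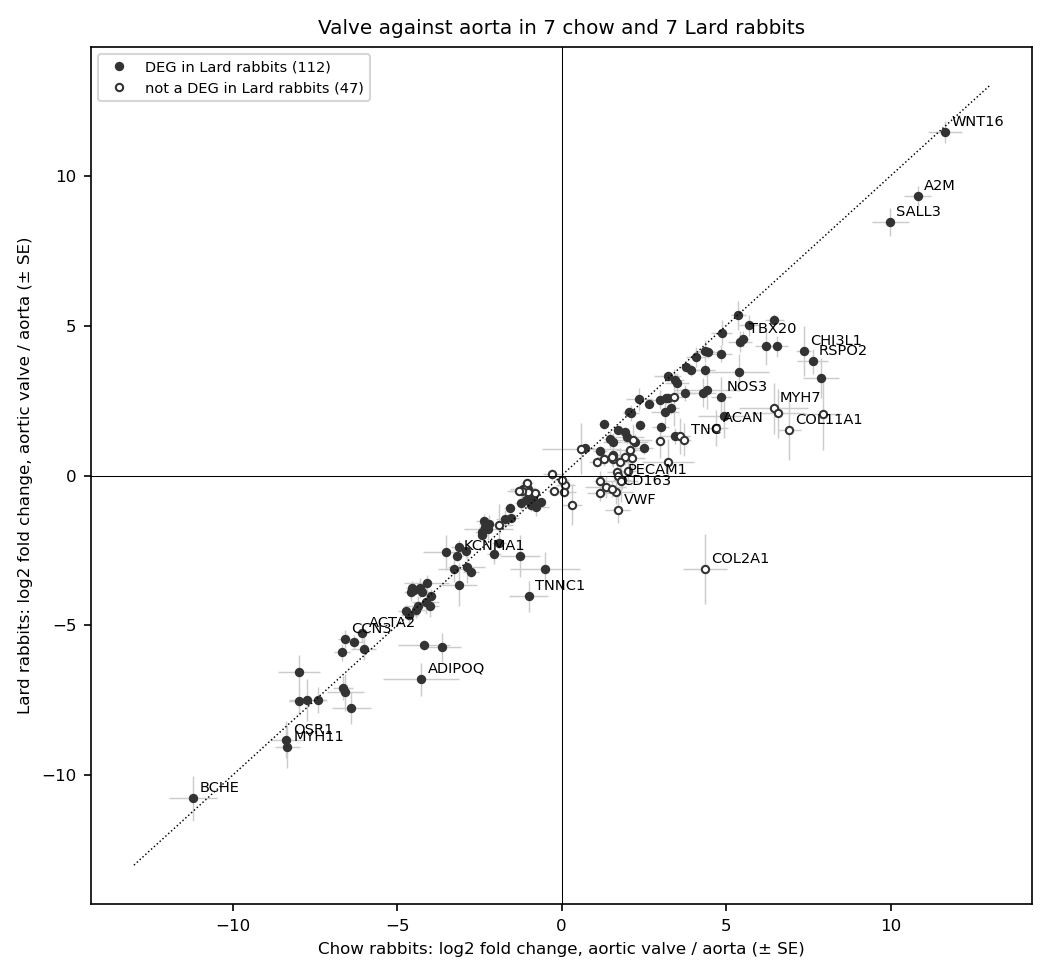
Log2 fold change of aortic valve over aorta in chow rabbits (x axis) and in Lard rabbits (y axis), 1 point per named gene with bars of ± SE. MYH11 and ACTA2 lie near the diagonal at the lower left and TBX20 and WNT16 at the upper right, while COL2A1, COL11A1 and ACAN lie under it.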

How the data were processed

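RNA of aorta rings and aortic valves was sequenced with a stranded total RNA kit for low input. According to the study's methods, reads were mapped to OryCun2.0 (build 2.0) and counted on Ensembl genes with the nf-core/rnaseq pipeline; bcl2fastq 2.20 is named in the submitters' processing notes. The deposited values are whole-number counts per gene without normalization, in 1 table per plate. Replicates were not pooled. Each library was assigned to its group by its label and to its rabbit by the animal number in its name. Members and gene lists were chosen with earlier results of these data known.

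Genes were filtered with filterByExpr, library sizes were scaled by TMM, and AoV was tested against Ao with the quasi-likelihood test of edgeR 4.0.16 in R 4.3.3, with the rabbit as a block and tissue as the term. P-values were two-sided and adjusted after Benjamini-Hochberg over all genes tested. Genes called had an adjusted p under 0.05 and a fold over 1.5. Scripts were tested on simulated counts. DESeq2 1.42.0 served as an alternative. The pairing comes from the animal number. After removal of the tissue means, both libraries of a rabbit correlated with a median of 0.0749 (-0.166 to 0.414), against -0.0450 between rabbits, and 3 of 7 rabbits exceeded 0.1.

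Genes named were the 6 DEGs with the smallest p in each direction, in each list the 3 with the smallest p in the direction with more DEGs and the 2 in the other, the 3 most abundant members of each marker list, all HOX genes that passed the filter, and a fixed set of valve and artery genes. Other named genes were chosen after their values were seen. CPM values were computed on 1 TMM scale over 48 libraries, those of AoV and Ao in Ctrl and Lard and of the other chow valves. According to the methods, the pipeline ran with default parameters apart from trimming options, so its strand setting was the default of the release used, and reads of a gene and of an overlapping antisense gene may not have been told apart. Results of some genes are not reported here.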

Additional observations from a re-analysis of the deposited data

Results flagged for a closer look

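Within each tissue, the highest and the lowest of the 7 chow libraries were compared with the others for the genes named above, on the log2 scale. In 19 of the groups tested (5.94%), the gap to the nearest library exceeded Dixon's critical share of the range. Chance alone flags about 1 in 20 groups.

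In rabbit L08256, the Ao library was the highest for COL2A1 (9.0 CPM) and COL8A1 (20.3 CPM) and the lowest for SLMAP (1569 CPM) and TNC (3.90 CPM), and the AoV library was the highest for CAVIN2 (754 CPM) and AGTR1 (0.554 CPM). In rabbit L08742, the Ao library was the highest for ANGPT2 (98.6 CPM) and ANLN (23.8 CPM) and the lowest for BMPER (1.29 CPM). Both tissues of L08742 were the lowest for SOX5, with 113 CPM in the AoV and 12.5 CPM in the Ao.

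In rabbit L08273, the Ao library was the lowest for ADAMTS9 (114 CPM) and the highest for CCN1 (180.02 CPM), and the AoV library was the lowest for CNMD (1.49 CPM) and TBX5 (0.0782 CPM). In rabbit L08313, the AoV library was the lowest for PECAM1 (18.9 CPM) and MITF (24.0 CPM), and the Ao library was the highest for FBN1 (4238 CPM). The Ao library of rabbit L08719 was the lowest for EDN1 (1.38 CPM). All of these genes kept the direction of their call without the rabbit concerned.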

How the results depend on the processing

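The 6478 DEGs (3540 higher, 2938 lower) were 2996 (1653 and 1343) in the 4 rabbits with the valve on plate 2, 3276 (2201 and 1075) in the 3 with it on plate 1, 3141 (1756 and 1385) with plate as a covariate and 3741 (2306 and 1435) in a test against a fold of 1.5. In the 4 rabbits of the larger valve set, a setting added after seeing the data, they were 3650 (1980 and 1670). These fits use fewer rabbits, an added term or a stricter hypothesis. Without TMM there were 1509 lower DEGs. Without the replicate block, that is without pairing by rabbit, there were 6632 DEGs (3884 and 2748). DESeq2 gave 8206, and leaving out 1 rabbit gave 5054 to 7046. Of the 148 DEGs named, none reversed, and 12 lost their call in at least 1 fit that left out a rabbit. Every fit drew on rabbits that gave the calls, so a kept sign is no independent check. Lost calls numbered 27 in the plate 1 rabbits, 17 in the plate 2 rabbits, 16 with plate as a covariate, 14 in the larger valve set, 12 against a fold of 1.5, 8 without TMM, 8 without the 3 rabbits with most heart muscle RNA, 3 in plate 2 libraries without the block, 1 without the filter and 0 under the remaining settings. The causes were not tested.

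Of the list medians under all alternatives, 17 moved beyond the spread between rabbits and 1 changed sign beyond it. That was TGF-beta and BMP signaling, with -0.036 in the larger valve set. The other sign changes were smaller than that spread and occurred 6 times each in the cholesterol and red blood cell lists, 2 times in mineralization genes and 1 time in immediate early genes. In the larger valve set, HOX genes had -3.35 and T and B cell markers 0.81. Without TMM they were -2.92 for smooth muscle contractile genes, 1.62 for proteoglycans and hyaluronan genes, 0.56 for mineralization genes, 0.68 for TGF-beta and BMP signaling, -0.034 for fatty acid oxidation and 2.53 for Schwann cell markers. Smooth muscle contractile genes had -3.01 in plate 2 libraries without the block. In the plate 1 rabbits, proteoglycans had 0.95 and endothelial defining markers 0.73. MHC class II had 0.43 in the plate 2 rabbits, 0.44 in the plate 1 rabbits, 0.43 with plate as a covariate and 0.61 without the 3 rabbits with most heart muscle RNA, a setting added after seeing the data, as was the fit without heart muscle genes (6455 DEGs). The former gave -0.70 for fatty acid oxidation. T and B cell markers ranged from 0.91 to 2.12 when 1 rabbit was left out, with 0.91 without L08256.

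Among genes that were not called, BGN reversed to 0.091 without TMM, 0.073 in the plate 1 rabbits and 0.12 without the 3 rabbits. COL3A1 reversed to -0.11 in the plate 2 rabbits, -0.35 in the larger valve set, -0.10 with the plate covariate and ranged from -0.073 (without L08719) to 0.32 (without L08742) when 1 rabbit was left out. NPR3 had -0.016 without the filter, -0.044 in plate 2 libraries without the block, -0.11 in the plate 1 rabbits, -0.020 in 1 model of 5 tissues, -0.27 in the larger valve set, -0.024 without the 3 rabbits and -0.10 to 0.16 when 1 rabbit was left out. TNNC1 had 0.48 in plate 2 libraries without the block. SLC8A1 had 0.031 without TMM, 0.018 in plate 2 libraries without the block and 0.27 in the larger valve set. ALAS2, EPB42 and SLC4A1 had -1.19, -0.55 and -1.94 without the block, -1.16, -1.17 and -1.59 in the plate 2 rabbits, -2.13, -2.06 and -2.07 in plate 2 libraries without the block, -1.16, -1.15 and -1.56 with the plate covariate and -1.59, -0.89 and -1.87 in the larger valve set; in 1 model of 5 tissues ALAS2 had -0.57 and SLC4A1 -0.58. HSPB1 had -0.18 in the plate 2 rabbits, -0.18 with the plate covariate and -0.54 in the larger valve set. When 1 rabbit was left out, HSPB1 ranged from -0.16 to 0.30, LPL from -1.13 to 0.017 and SLC4A1 from -0.29 to 1.46. The planned search for a promoter motif was not run. Ao libraries were all on plate 2, so plate and tissue could be separated only through the 4 AoV libraries there. Genes under about 1 CPM rest on few read pairs.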

Other observations

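Some genes that stood higher in the AoV than in the Ao differed in level between the chow valves, and these levels are given without a test. SALL3 had a median of 27.1 CPM in the AoV (13 to 100.9), 9.90 in the MV (2.49 to 24.5), 2.14 in the PV (0.960 to 2.78) and 2.08 in the TV (1.72 to 66.0). NGFR had 18.9 CPM in the AoV (9.15 to 64.1), 2.52 in the MV (1.54 to 3.95), 3.5 in the PV (1.15 to 5.78) and 0.666 in the TV (0.238 to 9.5). All 7 AoV libraries lay above every MV and PV library for NGFR, and 1 TV library, that of rabbit L08256, reached the AoV range. COL2A1 had 12.2 CPM in the AoV (2.86 to 31.2), 3.38 in the MV (0.954 to 7.13), 1.36 in the PV (0.581 to 3.13) and 0.997 in the TV (0.764 to 14.5). ACAN had 269.7 CPM in the AoV (230.6 to 579.2), 156.3 in the MV (109.7 to 290.3), 83.5 in the PV (67.1 to 115) and 56.2 in the TV (27.3 to 288), and SOX9 had 158.02 CPM in the AoV (106 to 374), 110.1 in the MV (95.8 to 171.1), 52.8 in the PV (32.7 to 80.9) and 32.9 in the TV (18.7 to 202). The AoV ranges of COL2A1, ACAN and SOX9 overlapped those of the MV, and that of COL2A1 also overlapped the PV. CHI3L1 had 283 CPM in the AoV (178.4 to 569.6), 349 in the MV (232.3 to 531), 71.4 in the PV (35.9 to 172.6) and 75.2 in the TV (15.3 to 458). The highest TV value of SALL3, NGFR, COL2A1, ACAN, SOX9 and CHI3L1 belonged in each case to rabbit L08256, and without that library the TV reached at most 5.25, 1.13, 2.07, 72.2, 42.7 and 87.5 CPM, under the lowest AoV library of each gene. GATA4 was likewise at 171.7 CPM in that TV library and at most 41.9 CPM in the other 6.

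COL11A1 had like medians in all 4 valves, with 123 CPM in the AoV (104 to 181.1), 102 in the MV (92.0 to 108), 115 in the PV (97.2 to 133) and 100.6 in the TV (67.0 to 158.9). RSPO2 had 54.3 CPM in the AoV (38.5 to 88.7), 56.0 in the MV (34.7 to 63.4), 34.1 in the PV (27.8 to 62.2) and 28.8 in the TV (7.76 to 33.3), and PROCR 50.1 CPM in the AoV (32.5 to 74.6), 41.2 in the MV (29.6 to 71.5), 33.5 in the PV (28.9 to 38.3) and 28.2 in the TV (21.1 to 64.9). For these 3 genes every valve library lay above every Ao library, whose highest values were 2.04, 0.661 and 7.23 CPM. A2M had 19.6 CPM in the AoV (5.49 to 59.7), 23.5 in the MV (14 to 30.1), 19.2 in the PV (8.93 to 52.8) and 4.54 in the TV (0.999 to 7.35). FBN2 was higher in the arterial valves, with 215 CPM in the AoV (147 to 357), 88.4 in the MV (57.9 to 112), 204 in the PV (172.1 to 425) and 88.4 in the TV (47.0 to 121).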
